A study of Mus musculus with 9 samples.

Results

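Insulin receptor signalling and GLUT4 traffic were followed through 9 genes in mouse fat cells cultured with 3 doses of sodium alginate, a seaweed polysaccharide. The genes Insr, Irs1, Irs2, Grb10, Akt1, Akt2, Tbc1d4, Slc2a4 and Lnpep were taken by symbol from a deposited table of 41761 genes, and all 9 passed the filter on low values. The cells were primary stromal cells of inguinal (subcutaneous) fat from wild-type C57BL/6J mice, differentiated towards white adipocytes. Alginate was given at 0, 50 or 100 µM, with 3 libraries a dose and 9 in all.

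Every dose, the 0 µM control included, had the same adipogenic mixture. It held insulin at 1 µg/ml, the glucocorticoid dexamethasone at 1 µM, the phosphodiesterase inhibitor isobutylmethylxanthine at 0.5 mM and the PPARG agonist rosiglitazone at 1 µM, in medium with 10% fetal bovine serum. After 2 days insulin and rosiglitazone were kept, by the protocol, whereas the design text names no rosiglitazone. All libraries thus come from cells with insulin in the medium, and none from cells without it. Sample titles place collection on day 6 and the protocol on day 7. The 100 µM libraries carry 50 µM in their titles; dose was read from the treatment label, which their library names match. The sources used here give neither age nor sex of the mice. No label ties libraries to separate cultures or animals, so the spread behind each p-value may be technical.

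Insulin binds a receptor tyrosine kinase on the fat cell, which phosphorylates docking proteins of the IRS family. These recruit PI3-kinase, whose lipid product brings AKT kinases to the membrane. AKT phosphorylates TBC1D4, also called AS160, a brake on the Rab proteins that move storage vesicles. The vesicles then carry GLUT4, the glucose transporter encoded by Slc2a4, to the cell surface. RNA levels alone were measured here, not phosphorylation, vesicle position or glucose uptake.

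Levels are in FPKM, fragments per gene length and library depth. Rebuilt reads ranged from 14019672 to 17094467 per library. Library 3 of 50 µM stood apart on the second principal component, at -19.1 against -4.62 to 11.4 for the others. The 13 markers of mature white adipocytes, the labelled cell type, summed to 7551 to 7749 FPKM in the controls, with leptin (Lep) at 0.04 FPKM or less in every library. Markers of skeletal muscle, another tissue rich in GLUT4, summed to 3.36 to 5.98 FPKM over 10 genes. Among them Ckm was at most 0.13 FPKM and Myh4 at most 0.04 FPKM. Acta1, at 1.78 to 3.82 FPKM, and Mylpf were the 2 that passed the filter on low values.

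Promoter sequence is shown for the 2 pairs of related genes and for Grb10, the 1 gene called lower at 100 against 0 µM, where 5 were called higher. Of the pairs, Akt1 and Akt2 parted, and the ratio of Irs2 to Irs1 overlapped between doses. Each window is the 250 bases before the most upstream RefSeq start on GRCm38.p6: chr1:82291440-82291689 for Irs1, chr8:11008930-11009179 for Irs2, chr12:112674885-112675134 for Akt1 and chr11:12037421-12037670 for Grb10, all on the minus strand, and chr7:27591302-27591551 for Akt2 on the plus strand. They read 5′ to 3′ on the strand of the gene, with motif matches in capitals.
Irs1: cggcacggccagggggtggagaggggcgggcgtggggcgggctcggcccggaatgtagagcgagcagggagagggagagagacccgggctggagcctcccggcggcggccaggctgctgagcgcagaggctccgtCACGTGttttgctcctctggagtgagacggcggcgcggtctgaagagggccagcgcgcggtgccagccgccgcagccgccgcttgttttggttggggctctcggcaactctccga
Irs2: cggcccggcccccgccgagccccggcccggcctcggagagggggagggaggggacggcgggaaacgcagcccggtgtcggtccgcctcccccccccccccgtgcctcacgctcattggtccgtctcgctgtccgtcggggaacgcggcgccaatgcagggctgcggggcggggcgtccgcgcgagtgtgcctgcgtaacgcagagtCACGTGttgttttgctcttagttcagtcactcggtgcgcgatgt
Akt1: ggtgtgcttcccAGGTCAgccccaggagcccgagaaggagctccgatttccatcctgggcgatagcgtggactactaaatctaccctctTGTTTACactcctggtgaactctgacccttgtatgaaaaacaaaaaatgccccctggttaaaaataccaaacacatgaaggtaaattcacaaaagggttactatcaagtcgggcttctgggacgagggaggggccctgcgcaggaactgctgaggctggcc
Akt2: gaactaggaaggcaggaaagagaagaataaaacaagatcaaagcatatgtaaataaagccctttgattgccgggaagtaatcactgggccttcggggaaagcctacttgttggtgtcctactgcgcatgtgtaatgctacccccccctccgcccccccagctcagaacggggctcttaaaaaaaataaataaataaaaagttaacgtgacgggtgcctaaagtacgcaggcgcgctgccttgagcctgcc
Grb10: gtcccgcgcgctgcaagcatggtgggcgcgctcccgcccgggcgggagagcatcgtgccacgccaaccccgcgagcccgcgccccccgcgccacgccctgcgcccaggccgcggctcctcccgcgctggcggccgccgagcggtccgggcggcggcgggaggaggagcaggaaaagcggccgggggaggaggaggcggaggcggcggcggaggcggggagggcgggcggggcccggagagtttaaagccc

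RefSeq windows matched 7 of the 9 genes, all but Slc2a4 and Insr, and 12 windows were searched on both strands. The motifs were AGGTCA (the half-site of nuclear receptors), its direct repeat with 1 base between (the form bound by PPAR with RXR, which contains the half-site), the forkhead motif GTAAACA of factors such as FOXO1, the C/EBP motif TTGCNNAA and the E-box CACGTG. The E-box began 115 bases before the Irs1 start and 44 bases before the Irs2 start, and 6.02% of 32851 windows of this length hold it. In the Akt1 window AGGTCA began 238 bases before the start and GTAAACA, on the opposite strand, 161 bases before it, beside 14.0% and 3.17% of windows. TTGCNNAA stood in the windows of Tbc1d4 and Lnpep, which are not printed, beside 9.56% of windows. No searched motif was in the windows of Akt2 and Grb10, and the direct repeat, found in 0.0335% of windows, was in none of the 12. A match describes letters, not a bound site.

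At 100 µM against 0 µM, RNA of the receptor, of 1 docking protein, of the kinase AKT2, of its substrate TBC1D4 and of GLUT4 rose, and that of the adaptor GRB10 fell. Slc2a4 rose 2.24-fold, Akt2 1.52-fold, Insr 1.30-fold, Irs2 1.29-fold and Tbc1d4 1.23-fold, while Grb10 fell to 0.822 of its control level. Irs1, Akt1 and Lnpep did not pass. The test was limma on log2(FPKM + 1), adjusted by Benjamini-Hochberg over 12635 genes that reached 1 FPKM in 3 or more libraries, and a gene was called at an adjusted p below 0.05. So 5 of the 9 genes rose and 1 fell, beside 18.3% and 15.6% of all tested genes. The background split moved with scaling, from 2314 higher and 1965 lower as deposited to 1630 and 2633 after each library was brought to a common FPKM sum, and to 1731 and 2658 with a factor per library in the deposited values removed. The values of 7 genes did not overlap between these doses, beside 47.9% of tested genes. The median log2 fold change was 0.28 for the 9 genes and 0.01 for all tested genes.

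**Figure D1:**
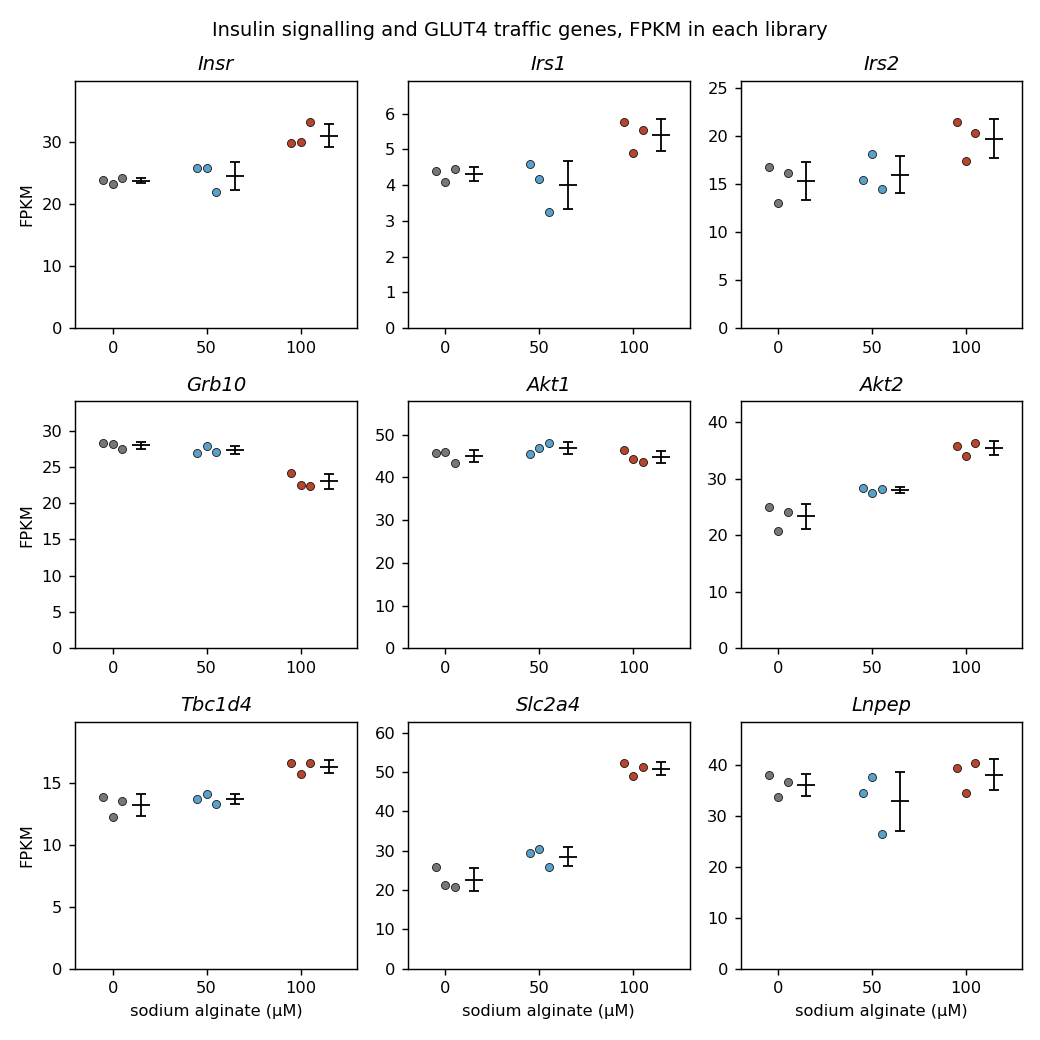
FPKM (vertical axes, from 0) of the 9 genes in each library at 0, 50 and 100 µM alginate, with points for libraries and the mean ± SD of 3 beside them. Slc2a4 lies between 49.1 and 52.3 FPKM at 100 µM, above its 6 other libraries.

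Slc2a4 encodes GLUT4, which is held inside the unstimulated fat cell. Its libraries had 25.9, 21.3 and 20.8 FPKM in the controls, 29.3, 30.3 and 25.9 with 50 µM and 52.3, 49.1 and 51.3 with 100 µM. All 100 µM libraries lay above all others, whereas the lowest 50 µM library was level with the highest control. For 100 against 0 µM the log2 fold change was 1.14 ± 0.0862 (SE, limma adjusted p = 2.68e-05), and for 100 against 50 µM it was 0.82 ± 0.0862 (adjusted p = 0.000351). For 50 against 0 µM it was 0.32 ± 0.0862 and missed the threshold (limma adjusted p = 0.118), though limma-voom on the rebuilt reads called it (adjusted p = 0.0190). Its log2 fold change at 100 µM stood at percentile 99.8 of all tested genes. In bulk RNA a larger share of adipocytes and more RNA per adipocyte cannot be told apart, here and for each gene that follows.

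Slc2a1 encodes GLUT1, the transporter that sits at the surface without insulin. It had 28.1, 26.5 and 24.5 FPKM in the controls, 24.4, 24.2 and 25.8 with 50 µM and 20.7, 19.8 and 19.1 with 100 µM. It fell at 100 µM, where every library was below every control (log2 fold change -0.39, limma adjusted p = 0.000788). Slc2a4 per Slc2a1, a ratio of levels per length within a library, was 0.857 ± 0.0612 (SD, n = 3) in the controls, 1.15 ± 0.132 with 50 µM and 2.56 ± 0.110 with 100 µM. An exact permutation test of the dose labels over the 9 libraries gave p = 0.00357, the smallest it can give, and adjusted p = 0.00625 over the 7 ratios tested. GLUT1 transcripts had the higher level per length in each control library, and GLUT4 transcripts in each library with alginate. In 50 µM library 3 the 2 were all but level, at a ratio of 1.004.

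Lnpep encodes IRAP, an aminopeptidase that travels in the same storage vesicles as GLUT4. It had 38.1, 33.7 and 36.7 FPKM in the controls, 34.6, 37.7 and 26.5 with 50 µM and 39.5, 34.6 and 40.5 with 100 µM. The doses overlapped, and 50 µM library 3 was the lowest of all. Its log2 fold change for 100 against 0 µM was 0.08 ± 0.117, with a 95% interval of -0.19 to 0.34 (limma adjusted p = 0.661). Slc2a4 per Lnpep was 0.627 ± 0.0573 (SD, n = 3), 0.876 ± 0.0893 and 1.34 ± 0.0763 in order of dose, and the 100 µM libraries did not overlap the controls (exact permutation p = 0.00357, adjusted p = 0.00625).

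**Figure D2:**
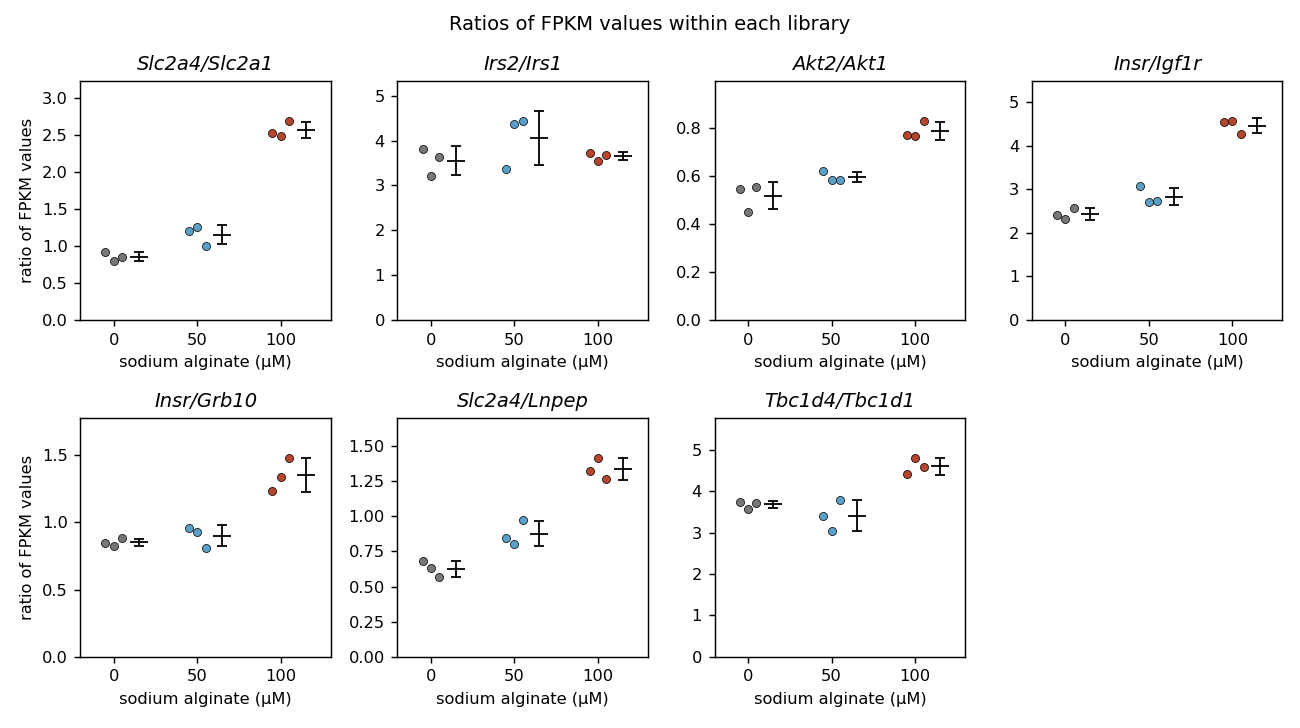
Ratios of FPKM values within each library (vertical axes, from 0) at 0, 50 and 100 µM alginate, with points for libraries and the mean ± SD of 3 beside them. Slc2a4 per Slc2a1 moves from a mean of 0.857 to 2.56, while the doses of Irs2 per Irs1 overlap.

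Insr encodes the insulin receptor. It had 23.9, 23.3 and 24.2 FPKM in the controls, 25.9, 25.8 and 22.0 with 50 µM and 29.8, 30.1 and 33.2 with 100 µM. The 100 µM libraries were above all others, and the 50 µM libraries straddled the controls. Its log2 fold change was 0.37 ± 0.0682 for 100 against 0 µM (limma adjusted p = 0.00293), 0.33 ± 0.0682 for 100 against 50 µM (adjusted p = 0.00795) and 0.04 ± 0.0682 for 50 against 0 µM (adjusted p = 0.860). Igf1r, whose product is a related receptor that can pair with the insulin receptor, fell from 9.79 ± 0.358 to 6.99 ± 0.702 FPKM (SD, n = 3, limma adjusted p = 0.00213). Insr per Igf1r was 2.43 ± 0.134, 2.83 ± 0.202 and 4.46 ± 0.167 in order of dose (exact permutation p = 0.00357, adjusted p = 0.00625).

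Grb10 encodes an adaptor that binds the active receptor and dampens its signal, and the gene is imprinted in mouse. It had 28.3, 28.2 and 27.5 FPKM in the controls, 26.9, 27.9 and 27.0 with 50 µM and 24.2, 22.4 and 22.4 with 100 µM. Controls and 50 µM libraries overlapped, and every 100 µM library was lower. Its log2 fold change was -0.27 ± 0.0424 for 100 against 0 µM (limma adjusted p = 0.00114) and -0.24 ± 0.0424 for 100 against 50 µM (adjusted p = 0.00389). Insr per Grb10 was 0.850 ± 0.0286, 0.900 ± 0.0777 and 1.35 ± 0.125 in order of dose (exact permutation p = 0.0143, adjusted p = 0.0167).

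Irs2 encodes 1 of the 2 main docking proteins of the receptor. It had 16.8, 13.1 and 16.2 FPKM in the controls, 15.4, 18.1 and 14.5 with 50 µM and 21.5, 17.4 and 20.4 with 100 µM. The 100 µM libraries lay above the controls but overlapped the 50 µM libraries. For 100 against 0 µM the log2 fold change of 0.35 ± 0.114 passed narrowly (limma adjusted p = 0.0420). The call was lost without control library 2 or 3, 50 µM library 1, or 100 µM library 1 or 3, at adjusted p = 0.132, 0.0605, 0.0568, 0.125 and 0.107 by limma. It was also lost at the common sum (0.121), with quantile normalization (0.0686), with the factor per library removed (0.0838), without the filter on low values (0.103) and with a replicate block (0.0654).

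Irs1 encodes the other docking protein and had the lowest level of the 9 genes, with 468 to 879 rebuilt reads per library. It had 4.39, 4.08 and 4.46 FPKM in the controls, 4.58, 4.16 and 3.26 with 50 µM and 5.76, 4.91 and 5.55 with 100 µM. The 100 µM libraries were above all others. For 100 against 0 µM the log2 fold change of 0.27 ± 0.0997 missed the threshold (limma adjusted p = 0.0655). It passed without 50 µM library 1 or 3 (limma adjusted p = 0.0468 and 0.0187), with only these doses in the fit (0.0249) and with voom (0.0109). Against 50 µM the log2 fold change was 0.36 ± 0.0997 and passed (limma adjusted p = 0.0266). That call was lost without 50 µM library 2 or 3, or 100 µM library 1 or 3, at adjusted p = 0.0503, 0.0570, 0.0784 and 0.0763 by limma. It was also lost with no filter (0.0703), at the common sum (0.0702) and with only these doses in the fit (0.0561). Irs2 per Irs1 was 3.55 ± 0.319, 4.06 ± 0.600 and 3.65 ± 0.0877 in order of dose, and the doses overlapped (exact permutation p = 0.343, adjusted p = 0.343). This rests on 50 µM library 1, at 3.36: the other 50 µM libraries, at 4.36 and 4.44, lay above the control and 100 µM libraries, and without it the exact permutation test passed (adjusted p = 0.0286).

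Akt2 encodes the AKT isoform best known for insulin-stimulated glucose uptake. It had 25.0, 20.8 and 24.0 FPKM in the controls, 28.3, 27.4 and 28.2 with 50 µM and 35.7, 34.0 and 36.3 with 100 µM. No values overlapped between the doses. Its log2 fold change was 0.59 ± 0.0639 for 100 against 0 µM (limma adjusted p = 0.000161) and 0.33 ± 0.0639 for 100 against 50 µM (adjusted p = 0.00581). For 50 against 0 µM it was 0.26 ± 0.0639 and missed the threshold (limma adjusted p = 0.104), while voom called it (adjusted p = 0.0180).

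Akt1 encodes the closely related isoform AKT1. It had 45.6, 45.9 and 43.3 FPKM in the controls, 45.4, 46.9 and 48.1 with 50 µM and 46.4, 44.4 and 43.7 with 100 µM. All doses overlapped. The 95% interval of its log2 fold change for 100 against 0 µM was -0.10 to 0.09 (limma adjusted p = 0.951). Akt2 per Akt1 was 0.519 ± 0.0573, 0.597 ± 0.0215 and 0.790 ± 0.0365 in order of dose (exact permutation p = 0.00357, adjusted p = 0.00625), so Akt1 had the higher level per length throughout.

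Tbc1d4 encodes the AKT substrate that restrains GLUT4 vesicles. It had 13.9, 12.3 and 13.6 FPKM in the controls, 13.7, 14.1 and 13.3 with 50 µM and 16.6, 15.7 and 16.6 with 100 µM. The 100 µM libraries were above all others. Its log2 fold change was 0.28 ± 0.0533 for 100 against 0 µM (limma adjusted p = 0.00309). Against 50 µM it was 0.24 ± 0.0533 (limma adjusted p = 0.0117), a call lost at the common sum (0.0796). Its paralogue Tbc1d1, better known from muscle, had 3.59 ± 0.147 FPKM in the controls and 3.56 ± 0.259 FPKM with 100 µM (SD, n = 3, limma adjusted p = 0.932). Tbc1d4 per Tbc1d1 was 3.68 ± 0.0899, 3.40 ± 0.372 and 4.60 ± 0.204 in order of dose (exact permutation p = 0.0143, adjusted p = 0.0167).

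**Figure D3:**
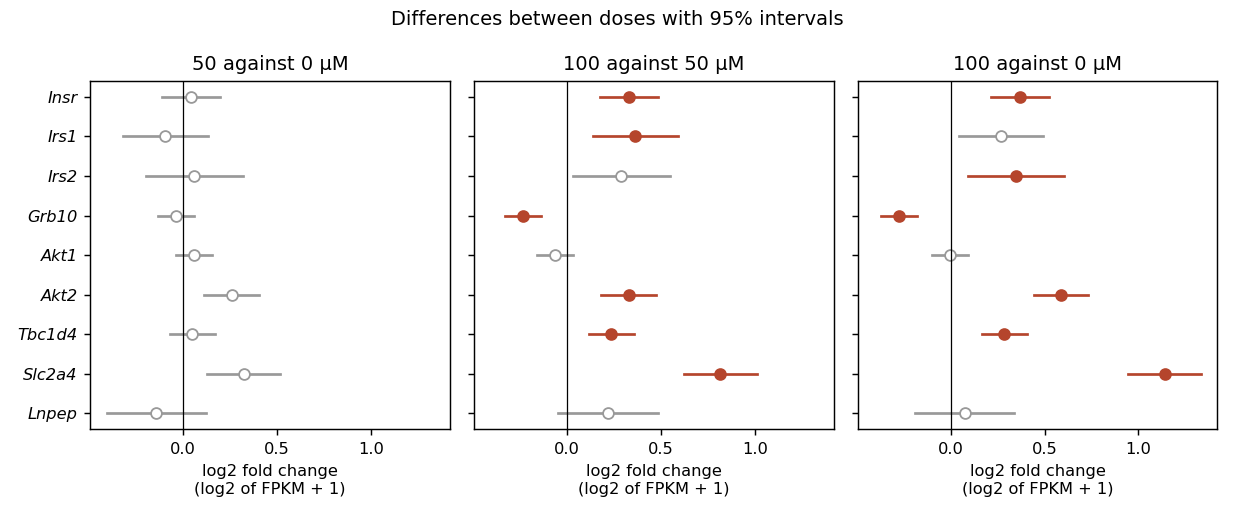
Log2 fold changes of log2(FPKM + 1) for the 9 genes in the 3 comparisons between doses, with 95% intervals. Filled red points passed limma at an adjusted p below 0.05 and open grey points did not: 0 passed for 50 against 0 µM, and 6 in each of the comparisons of 100 µM.

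At 50 against 0 µM limma called 0 of the 9 genes, beside 0.356% of tested genes higher and 0.435% lower, 0.791% in all. At an unadjusted p below 0.05 there were 2, Slc2a4 and Akt2, the 2 that voom called, beside 14.4% of all tested genes at that p. Akt2 was the 1 gene whose 50 and 0 µM values did not overlap, beside 20.7% of tested genes. At 100 against 50 µM 5 genes rose (Slc2a4, Insr, Irs1, Akt2 and Tbc1d4) and 1 fell (Grb10), beside 13.2% and 12.0% of tested genes, 25.1% in all. There 6 genes had values that did not overlap, beside 40.4%. These comparisons share libraries with that of 100 against 0 µM. The limma F test over doses called 6 of the 9, beside 30.5% of tested genes: the 5 genes called in both comparisons of 100 µM, and Irs1. That count was 4 to 7 under other settings, lowest at the common sum, and 5 to 6 with 1 library left out.

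The order of levels per length also moved. In the controls it ran from Akt1 (44.9 FPKM) through Lnpep, Grb10, Insr, Akt2, Slc2a4, Irs2 and Tbc1d4 to Irs1 (4.31 FPKM). Insr overlapped Akt2 there, Akt2 overlapped Slc2a4 and Irs2 overlapped Tbc1d4. With 50 µM Slc2a4 was in the third place, between Lnpep and Akt2, and overlapped both. With 100 µM Slc2a4 led at 50.9 FPKM, all its libraries above those of Akt1, and Grb10 had gone from the third to the sixth place. Of neighbours in that order Lnpep and Akt2 overlapped and the others did not.

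Marker genes moved between the same groups. Their calls are for 100 against 0 µM, where 18.3% of all tested genes rose and 15.6% fell. All 12 tested adipocyte markers rose at 100 µM, with log2 fold changes from 0.39 (Lpl) to 0.76 (Pnpla2), a median of 0.59 and a summed level of 8045 to 8531 FPKM with 50 µM and 10847 to 11633 FPKM with 100 µM. Slc2a4 had a larger log2 fold change than all 12, and 6 of the 12 had a larger one than Akt2. The other genes called higher, Insr (0.37), Irs2 (0.35) and Tbc1d4 (0.28), had smaller ones than all 12. Stromal progenitor markers fell in 5 of 7 tested cases, and their sum was 753 to 836 FPKM in the controls, 697 to 800.4 FPKM with 50 µM and 434 to 509 FPKM with 100 µM. Macrophage markers fell in 6 of 7 cases (sums of 186 to 205, 203 to 208 and 148 to 156 FPKM in order of dose) and endothelial markers in 8 of 9 (155 to 171, 152 to 162 and 134 to 137 FPKM). Of 7 smooth muscle and pericyte markers 2 rose and 2 fell, with sums of 292 to 335, 294 to 346 and 202 to 221 FPKM. Of 6 lymphocyte markers none reached the filter, and 1 was at 0 in every library. The part of these cell types in the changes of the 9 genes was not tested.

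By the deposited table all 9 genes are protein-coding, with coordinates on the C57BL/6NJ strain assembly and 1 value per whole gene. On chromosome 11 the table places Slc2a4 (MGP_C57BL6NJ_G0018962) at chr11:72557771-72563407, minus strand, and Grb10 (MGP_C57BL6NJ_G0018441) at chr11:9551231-9662406, minus strand. On chromosome 8 it places Insr (MGP_C57BL6NJ_G0033792) at chr8:55684-192168, minus strand, and Irs2 (MGP_C57BL6NJ_G0033843) at chr8:8523792-8545229, minus strand. It gives Irs1 (MGP_C57BL6NJ_G0016604) at chr1:86344306-86404098, minus strand, Akt1 (MGP_C57BL6NJ_G0020542) at chr12:118681146-118702122, minus strand, and Akt2 (MGP_C57BL6NJ_G0032367) at chr7:27142308-27206464, plus strand. It gives Tbc1d4 (MGP_C57BL6NJ_G0022025) at chr14:101798591-101985734, minus strand, and Lnpep (MGP_C57BL6NJ_G0023590) at chr17:16304034-16407806, minus strand. These coordinates were not converted to the build of the promoter windows.

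The rest of the pathway was read from 9 lists with 121 tested genes. At 100 against 0 µM 29 rose and 13 fell, together 34.7%, near the 33.9% of all tested genes. The median log2 fold change was 0.04, beside 0.01 for all tested genes. At 50 against 0 µM limma called 0 of the 121, with 17 at an unadjusted p below 0.05 (14.0%, beside 14.4% of all tested genes), and voom called 1. Of the 42 called at 100 against 0 µM none changed sign under 4 other scalings, and 33 to 41 kept the call there. When 1 library was left out 32 to 41 kept it. Genes whose call was lost without some library were Exoc7, Gsk3a, Mapkap1, Pdpk1, Ptprf, Rac1, Rala, Slc2a8, Slc2a13, Stxbp3 and Stxbp4.

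**Figure D4:**
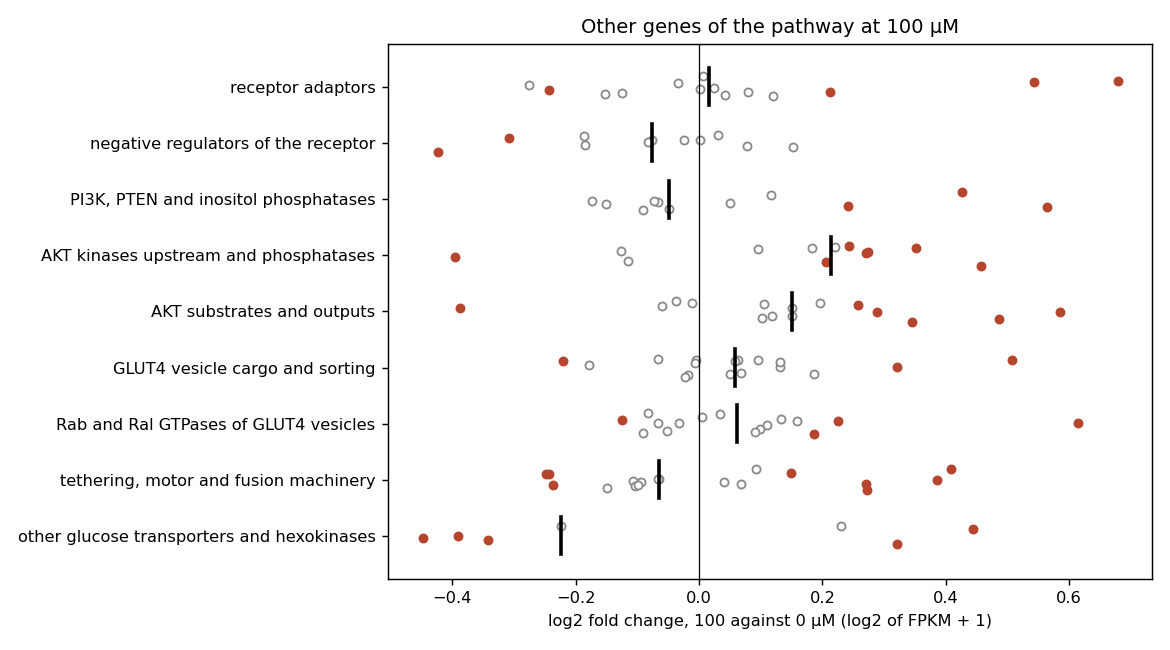
Log2 fold change of log2(FPKM + 1) for 100 against 0 µM (horizontal axis) of each tested gene in 9 pathway lists (rows). Filled points passed limma at an adjusted p below 0.05, open points did not, and black bars are list medians, from -0.22 for other glucose transporters and hexokinases to 0.21 for AKT kinases upstream and phosphatases.

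Around the receptor, 3 of 14 tested adaptor genes rose and 1 fell. Sh2b2, whose product APS binds the active receptor, rose from 11.3 ± 1.21 to 18.6 ± 0.860 FPKM (SD, n = 3, limma adjusted p = 0.000192). Sh2b1 rose from 10.8 ± 0.237 to 12.7 ± 0.230 FPKM, a call lost at the common sum. Cblb, a ubiquitin ligase gene, fell from 13.9 ± 0.371 to 11.6 ± 0.826 FPKM. Of 11 tested negative regulators of the receptor 2 fell. Grb14, a relative of Grb10, fell from 1.72 ± 0.0720 to 1.03 ± 0.0651 FPKM, and the phosphatase gene Ptprf from 3.38 ± 0.0863 to 2.54 ± 0.319 FPKM, a call lost without control library 3 or 100 µM library 2.

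Of 11 tested genes of PI3-kinase and the lipid phosphatases that oppose it 3 rose. Pik3r1, which encodes a regulatory subunit, rose from 41.8 ± 2.20 to 62.3 ± 4.56 FPKM (SD, n = 3, limma adjusted p = 0.000329). Pik3cb, a catalytic subunit gene, rose from 3.89 ± 0.152 to 5.57 ± 0.136 FPKM. Inppl1, which encodes the lipid phosphatase SHIP2, rose from 18.0 ± 0.840 to 21.5 ± 0.113 FPKM, a call lost at the common sum. The median log2 fold change of this list was -0.05, of opposite sign to its called members.

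Upstream of AKT 6 of 12 tested genes rose and 1 fell. Mtor, the kinase of both mTOR complexes, rose from 14.8 ± 0.668 to 20.7 ± 0.638 FPKM (SD, n = 3, limma adjusted p = 0.000277). Ppp2r5b and Ppp2ca encode subunits of the phosphatase PP2A. Ppp2r5b rose from 14.9 ± 1.05 to 19.3 ± 1.16 FPKM and Ppp2ca from 40.0 ± 0.635 to 46.3 ± 1.93 FPKM, the Ppp2ca call being lost at the common sum and with quantile normalization. Downstream of AKT 5 of 15 tested genes rose and 1 fell. Pde3b, the phosphodiesterase through which insulin restrains lipolysis, rose from 70.6 ± 5.32 to 106 ± 4.23 FPKM, and the translation repressor gene Eif4ebp1 from 179.8 ± 9.19 to 252 ± 4.64 FPKM. The forkhead genes parted: Foxo1 rose from 7.11 ± 0.281 to 9.31 ± 0.341 FPKM and Foxo3 fell from 10.9 ± 0.333 to 8.08 ± 0.204 FPKM.

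Among genes that sort GLUT4 into its vesicles 2 of 17 tested rose and 1 fell. Sort1, the sortilin gene, rose from 47.8 ± 0.315 to 68.4 ± 1.51 FPKM (SD, n = 3, limma adjusted p = 5.08e-05). Tusc5, now named Trarg1, encodes a GLUT4 vesicle protein and rose from 37.2 ± 1.12 to 46.8 ± 1.54 FPKM. Cltb, a clathrin light chain gene, fell from 12.6 ± 0.286 to 10.7 ± 0.0372 FPKM. Vamp2, the vesicle SNARE, had 8.89 ± 0.670 and 7.77 ± 1.07 FPKM and did not pass (limma adjusted p = 0.204).

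Of 16 tested Rab and Ral genes 3 rose and 1, Rac1, fell. Ralgapa2 and Ralgapa1 encode subunits of complexes that switch off Ral. Ralgapa2 rose from 6.43 ± 0.783 to 10.3 ± 0.597 FPKM (SD, n = 3) and Ralgapa1 from 9.31 ± 0.140 to 10.7 ± 0.222 FPKM. The Ralgapa1 call was lost at the common sum and with the factor per library removed. Rala rose from 21.3 ± 1.28 to 25.1 ± 2.28 FPKM, a call lost under 3 of 4 scalings and without control library 1 or 2, or 100 µM library 2 or 3. Rab10, on which TBC1D4 acts in fat cells, had 59.8 ± 3.59 and 65.6 ± 0.916 FPKM and did not pass (limma adjusted p = 0.0571).

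Of 18 tested genes for tethering, motors and fusion 5 rose and 3 fell. Cav1, the caveolin gene, rose from 392 ± 14.0 to 513 ± 26.2 FPKM (SD, n = 3, limma adjusted p = 0.000595). Sdpr, now named Cavin2, rose from 231 ± 22.4 to 306 ± 9.64 FPKM, a call lost with quantile normalization. Of 8 exocyst genes 3 rose (Exoc3, Exoc7 and Exoc8), 1 fell (Exoc4) and 4 did not pass. The Exoc7 call was lost at the common sum, with quantile normalization, with the factor per library removed and with voom. It held in 4 of 9 fits with 1 library left out. Exoc3 went from 12.6 ± 0.489 to 15.5 ± 0.609 FPKM, Exoc8 from 5.35 ± 0.0367 to 6.66 ± 0.349 FPKM and Exoc4 from 9.34 ± 0.492 to 7.71 ± 0.218 FPKM. Stx4a, the surface SNARE of GLUT4 fusion, had 21.9 ± 1.53 and 22.5 ± 1.85 FPKM and did not pass (limma adjusted p = 0.726).

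Of 7 other tested glucose transporters and hexokinases 2 rose and 3 fell, Slc2a1 among the latter. Hexokinases trap glucose in the cell as its phosphate. Hk2, the insulin-responsive form, rose from 23.4 ± 1.11 to 32.1 ± 1.47 FPKM (SD, n = 3, limma adjusted p = 0.000361). Hk1 fell from 9.79 ± 0.0269 to 6.91 ± 0.306 FPKM (limma adjusted p = 0.000120).

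Genes with the most similar profile were sought for the 6 genes called by the F test. Likeness was the root mean square distance between log2(FPKM + 1) values, centred on each gene's mean over the 9 libraries, among 7166 protein-coding genes with a mean of at least 5 FPKM. Nearest to Slc2a4 were Ehhadh (distance 0.0737), a peroxisomal beta-oxidation enzyme gene, Acacb (0.0771), an acetyl-CoA carboxylase gene, and Ces1d (0.0855), a carboxylesterase gene whose close copies make its reads uncertain. Insr lay nearest to Sh3pxd2a (0.0207), Vldlr and Adcy6. Irs1 lay nearest to Arfgef2 (0.0577), Zfp106 and Btaf1. For Akt2 these genes were Fam13a (0.0410), Mthfd2 and Ptges2. For Tbc1d4 they were Slc16a1 (0.0234), 9130011E15Rik and Etnk1. For Grb10, which fell, they were Slc38a10 (0.0210), Vav2 and Tmem63a.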

How the data were processed

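Per the file headers, the authors deposited 1 table with FPKM values and a length for each gene. No aligner or counting tool, and no strand setting, is given in the sources used here, so reads of overlapping genes may be mixed. Builds named in the submitters' processing notes are GRCm38 and mm10, whereas gene identifiers in the table are of C57BL/6NJ. FPKM times length came in whole steps for 100% of values (tolerance 0.01 read), from which reads and the factor per library were rebuilt. Replicate libraries differed beyond counting error, with a chi-square per gene between 3.21 and 7.22.

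The model, in limma 3.58.1 (R 4.3.3), had 1 mean per dose over all 9 libraries, variances moderated with a trend, and two-sided p-values. Fold changes on log2(FPKM + 1) understate those of low genes. Ratios used an exact permutation test over 1680 arrangements. The 9 genes and all lists were chosen with earlier results of these data known. Named pathway genes are up to 3 called genes a list with the smallest p at 100 against 0 µM and those in a ratio. Others, named beside small counts or for their role, were chosen after their values were seen. Some genes under this rule are not reported here. Nearest profiles are the 3 with the smallest distance. Alternatives were another pseudocount (0.1), 2 other filters, 4 scalings, voom, fits of 2 doses, a replicate block and each library left out.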

Additional observations from a re-analysis of the deposited data

How the results depend on the processing

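At 100 against 0 µM, 4 to 6 of the 9 genes were higher and 1 lower under every alternative run, and Slc2a4, Insr, Akt2, Tbc1d4 and Grb10 were called in each. At 100 against 50 µM 3 genes were higher at the common sum, where 1060 of all genes were, and 1102 with the factor per library removed. At 50 against 0 µM voom called 2 of the 9 genes higher, 1 pathway gene lower, and 169 genes higher and 179 lower in all. The 45 higher and 55 lower genes of that comparison became 6 and 6 with no filter, 101 and 107 with the stricter filter, and 0 and 0 both with only 2 doses in the fit and with the replicate block. Leaving out 1 library gave 0 to 53 higher and 0 to 59 lower. It gave 13 to 24 pathway genes higher at 100 against 50 µM (25 with all libraries) and 8 to 13 lower at 100 against 0 µM. Values near 0 changed sign: over the left-out libraries the log2 fold change was -0.0309 to 0.0134 for Akt1 at 100 against 0 µM and, at 50 against 0 µM, -0.180 to 0.0160 for Irs1, -0.0463 to 0.125 for Irs2, -0.00120 to 0.0815 for Tbc1d4 and -0.245 to 0.000460 for Lnpep, which was positive only without 50 µM library 3. The log2 difference of Irs2 per Irs1 was -0.0298 to 0.0986, and stayed at 0.0435 without 50 µM library 1, where the exact permutation test over the 3 doses passed (adjusted p = 0.0286). The cause of these shifts was not tested.

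Library numbers did not pair the libraries: deviations of same-numbered libraries correlated at -0.0941 to 0.0412 over 9 pairs. With the replicate block Irs2 at 100 against 0 µM had an adjusted p of 0.0654. Counting error weighs most on Irs1, which had the fewest reads of the 9 genes.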

Other observations

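Set against Adipoq, the adiponectin gene and an adipocyte marker, Slc2a4 alone of the 9 genes had a higher mean at 100 than at 0 µM. This is a description chosen after the values were seen and without a test. Per 100 FPKM of Adipoq, Slc2a4 had 3.81 ± 0.311 FPKM (SD, n = 3) in the controls, 4.36 ± 0.473 with 50 µM and 5.35 ± 0.533 with 100 µM. Akt2 had 3.92 ± 0.356 in the controls, 4.26 ± 0.0695 with 50 µM and 3.71 ± 0.340 with 100 µM. From 0 to 100 µM Insr went from 4.01 ± 0.210 to 3.26 ± 0.243 and Tbc1d4 from 2.23 ± 0.151 to 1.71 ± 0.161. Irs1 went from 0.727 ± 0.0494 to 0.569 ± 0.0831, Irs2 from 2.59 ± 0.330 to 2.08 ± 0.351 and Lnpep from 6.09 ± 0.359 to 4.02 ± 0.534. Akt1 went from 7.57 ± 0.231 to 4.71 ± 0.467 and Grb10 from 4.72 ± 0.145 to 2.42 ± 0.277. The marker matters for Akt2. Each of the 12 tested adipocyte markers was taken in turn as the denominator. The mean ratio was then higher at 100 than at 0 µM for 12 of 12 with Slc2a4 and 6 of 12 with Akt2. With each of the other 7 genes it was higher for 0 of 12. These counts restate the order of the log2 fold changes given above and are not a further check.

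Within each dose 1 library held the lowest value of 6 of the 9 genes: control library 2, 50 µM library 3 and 100 µM library 2. Irs1, Irs2, Tbc1d4 and Lnpep were lowest in that library at every dose, and Akt1 and Grb10 at none. This was seen in the values and was not tested. The share of all tested genes that were lowest in these libraries was not computed. The pattern therefore cannot be called particular to these 9 genes.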
